A study of Homo sapiens with 24 samples.

Results

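Mitochondria carry their own ribosome, which translates the few messenger RNAs of the mitochondrial genome into core subunits of the respiratory chain and the ATP synthase. Its RNAs are made inside the organelle, whereas all of its proteins are encoded in the nucleus, made on cytosolic ribosomes and imported. The genes of the large subunit proteins are named MRPL and those of the small subunit proteins MRPS. The 8 such genes on chromosome 1 in the deposited table, chosen by gene symbol from 11579 transcripts, are described here: MRPL9, MRPL20, MRPL24, MRPL37 and MRPL55 of the large subunit and MRPS14, MRPS15 and MRPS21 of the small subunit. MRPL37 and MRPL55 have no counterpart in the bacterial ribosome, and the other genes encode relatives of bacterial ribosomal proteins.

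HEK293, a long-established line of human embryonic kidney origin, gave 24 libraries, with 3 replicates in each of 8 groups. Cells were untransfected, or transiently transfected with pCMV-flag (empty vector), pCMV-EVI1-WT-flag (EVI1-WT) or pCMV-EVI1-AQA-flag (EVI1-AQA), and each was left untreated or given 150 µM H2O2 for 8 h as genotoxic stress. EVI1 is a zinc finger transcription factor, and EVI1-AQA carries alanine in place of a pair of its serines, so that these residues cannot be phosphorylated. Transient transfection from a viral promoter reaches some of the cells and not others, and the share reached was not analysed here, nor was MECOM, the gene that encodes EVI1. The protocol in the labels also names luciferase reporter plasmids, which the study's methods for sequencing do not. No label says that replicates came from separate cultures, so p-values measure the spread between these samples, which may be technical. A fall of a transcript in a share of the cells and less of it in every cell cannot be told apart in such bulk RNA.

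The values are log2 expression levels after the normalization by the authors. In each of 3 batches of 8 samples, 1 per replicate number, the values of any transcript average 0. A value therefore says how far a sample lay above or below the other samples of its batch. It gives no level of a gene and no order of levels between genes, and the markers of the cell line could not be checked. Over all transcripts, the SD of a library lay between 0.245 and 0.421 on the log2 scale, and it was highest in replicates 2 and 3 of the untreated untransfected cells. Changes of untreated cells against untransfected cells are therefore also given without these 2 libraries for the genes that the text describes. As this leaves 1 library in that group, only the size of the change is given. In the transcript labelled CACNB3, untreated samples lay between 2.62 and 4.14 with either EVI1 construct and between -4.49 and -1.64 without. With H2O2, 3 libraries went against their labels in this transcript, namely the library labelled empty vector replicate 2 (4.36), that labelled EVI1-WT replicate 2 (-4.38) and that labelled EVI1-AQA replicate 1 (-2.60). All libraries kept their labels, and results that rest on H2O2 samples are also given without these 3. Identifiers were matched to GENCODE v44 on GRCh38. On chromosome 1, 50.7% of annotated protein coding genes and 2.39% of other genes had a transcript in the table, against 19.3% and 16.4% on chromosomes 2 to 22. Apart from the transcript labelled CACNB3, which served only to compare libraries and whose gene is uncertain, the labels of chromosomes 2 to 22 were not used here. The other MRPL and MRPS symbols among the 37 in the table are therefore not described.

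The 8 genes lie far apart and are protein coding. MRPL20 (ENSG00000242485) occupies chr1:1401909-1407293 on the minus strand, MRPS15 (ENSG00000116898) chr1:36455718-36464384 on the minus strand, MRPL37 (ENSG00000116221) chr1:54184041-54225464 on the plus strand and MRPS21 (ENSG00000266472) chr1:150293861-150308979 on the plus strand. MRPL9 (ENSG00000143436) occupies chr1:151759647-151763496, MRPL24 (ENSG00000143314) chr1:156737303-156741590, MRPS14 (ENSG00000120333) chr1:175010789-175023425 and MRPL55 (ENSG00000162910) chr1:228106679-228109312, all on the minus strand. The libraries read the 3' ends of transcripts, so the last exon is what was counted. An antisense gene lies over the last exon of MRPL20 and another over that of MRPL9, and whether the counting used the strand is not stated in the sources used here. For MRPL20 the antisense gene, labelled RP4-758J18.2 in the table, has a transcript of its own, whose values had a Pearson correlation of 0.45 with those of MRPL20 over 24 samples. MRPS21 has 8 annotated pseudogenes named after it, which could take or lend reads, and MRPL9, MRPL20, MRPL37 and MRPS15 have 1 each.

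Since EVI1 binds DNA, the 250 bases before each gene's start in RefSeq (GRCh38.p14) were searched on both strands for 5 short motifs. The sequences of MRPL24 and MRPS14 are shown because these genes differed most between the transfection states. Both are read on the minus strand, MRPL24 at chr1:156741089-156741338 and MRPS14 at chr1:175023426-175023675, and the capitals mark GC boxes. The RefSeq window of MRPL24 lies inside the GENCODE span of the gene given above, as the annotations place its start differently. The same holds for the window of MRPL37, chr1:54199917-54200166.
MRPL24: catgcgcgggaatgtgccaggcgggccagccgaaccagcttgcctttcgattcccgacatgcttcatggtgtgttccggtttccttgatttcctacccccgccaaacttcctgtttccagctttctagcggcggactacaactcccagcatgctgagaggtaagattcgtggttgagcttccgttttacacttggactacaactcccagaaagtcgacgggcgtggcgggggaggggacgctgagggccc
MRPS14: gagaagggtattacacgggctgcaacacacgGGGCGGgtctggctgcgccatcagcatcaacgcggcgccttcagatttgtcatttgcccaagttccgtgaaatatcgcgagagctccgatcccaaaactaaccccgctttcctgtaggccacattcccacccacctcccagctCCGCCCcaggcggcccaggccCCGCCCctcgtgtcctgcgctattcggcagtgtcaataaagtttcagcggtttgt

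The letters GACAAGATA, which the amino-terminal zinc fingers of EVI1 bind, stood in none of the 8 windows and in 0.0989% of all promoters of the same length. The letters GAAGATGAG, bound by its carboxy-terminal fingers, also stood in 0 of the 8 windows and in 0.26% of all promoters. The GC box GGGCGG stood in 3 windows, 5 times in MRPL55, 3 times in MRPS14 and once in MRPS15, and in 42.3% of all promoters. The core CCGGAAG of ETS factors stood in the windows of MRPL20 and MRPS21 and in 8.82% of all promoters, and TGCGCA, part of the site of nuclear respiratory factor NRF1, in 0 of the 8 and in 7.05%. A match is a string of letters and not a measured site.

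Across the 8 groups, MRPL24 was the one gene of the 8 to change by limma's F-test with Benjamini-Hochberg adjustment over all transcripts (F = 5.49, adjusted p = 0.0313, and 0.0103 without the replicate block). Of all transcripts 7.87% were called, so 1 of 8 is near the background. MRPL24 is also in the list that the study drew from its own test across these samples, so this call is not independent evidence. The adjusted p of the other genes was 0.167 for MRPS14, 0.191 for MRPL55, 0.288 for MRPL20, 0.43 for MRPS15, 0.461 for MRPL9, 0.647 for MRPS21 and 0.981 for MRPL37. The call of MRPL24 was lost without replicate 1, 2 or 3 (adjusted p from 0.172 to 0.213 by the F-test). It remained without the 3 H2O2 libraries (adjusted p = 0.0431 by the F-test). Whether the call holds without the 2 untreated untransfected libraries is not given, as 1 library remained in that group.

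MRPL24 encodes a large subunit protein whose bacterial relative is among the first to bind the ribosomal RNA. In untreated cells its values in replicates 1, 2 and 3 were 0.41, 0.65 and 0.38 untransfected, 0.56, 0.15 and 0.25 with empty vector, 0.094, -0.070 and -0.15 with EVI1-WT, and -0.35, -0.20 and -0.11 with EVI1-AQA. Every untreated sample with EVI1-WT or EVI1-AQA lay below every untreated untransfected and empty vector sample. Such separations, here and below, were read from the values, and how many of all transcripts separated in the same way was not counted. With H2O2 its values were -0.023, 0.63 and 0.013 untransfected, -0.032, -0.35 and 0.10 with empty vector, -0.45, -0.17 and -0.19 with EVI1-WT, and -0.22, -0.64 and -0.31 with EVI1-AQA. Under H2O2 the samples with either EVI1 construct lay below the untransfected ones, replicate 2 of which stood far above the other two, and the empty vector samples overlapped with those of both constructs.

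The group means of MRPL24 ran from 0.48 ± 0.15 (SD, n = 3) in untreated untransfected cells to -0.39 ± 0.22 in EVI1-AQA with H2O2. Between them came empty vector untreated (0.32 ± 0.22), untransfected with H2O2 (0.21 ± 0.37), EVI1-WT untreated (-0.043 ± 0.13), empty vector with H2O2 (-0.093 ± 0.23), EVI1-AQA untreated (-0.22 ± 0.12) and EVI1-WT with H2O2 (-0.27 ± 0.16). Neighbours in this order differed by 0.050 to 0.25, against a standard error of 0.19 for a difference between groups, so the 95% interval of each such difference held 0. Against untransfected cells, untreated EVI1-AQA cells were lower in MRPL24 by 1.63-fold (log2 change -0.70, SE 0.19, 95% interval -1.09 to -0.31, adjusted p = 0.0268 by limma), in all 3 batches. This contrast was added after the data were seen and called 8.84% of all transcripts. The adjusted p was 0.0126 without the replicate block and lay between 0.107 and 0.148 without 1 replicate, with changes from -0.81 to -0.63. It was 0.0618 after quantile normalization and 0.148 in a test without block or moderation. Without the 2 untreated untransfected libraries, which left 1 in that group, the change was -0.62.

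**Figure D1:**
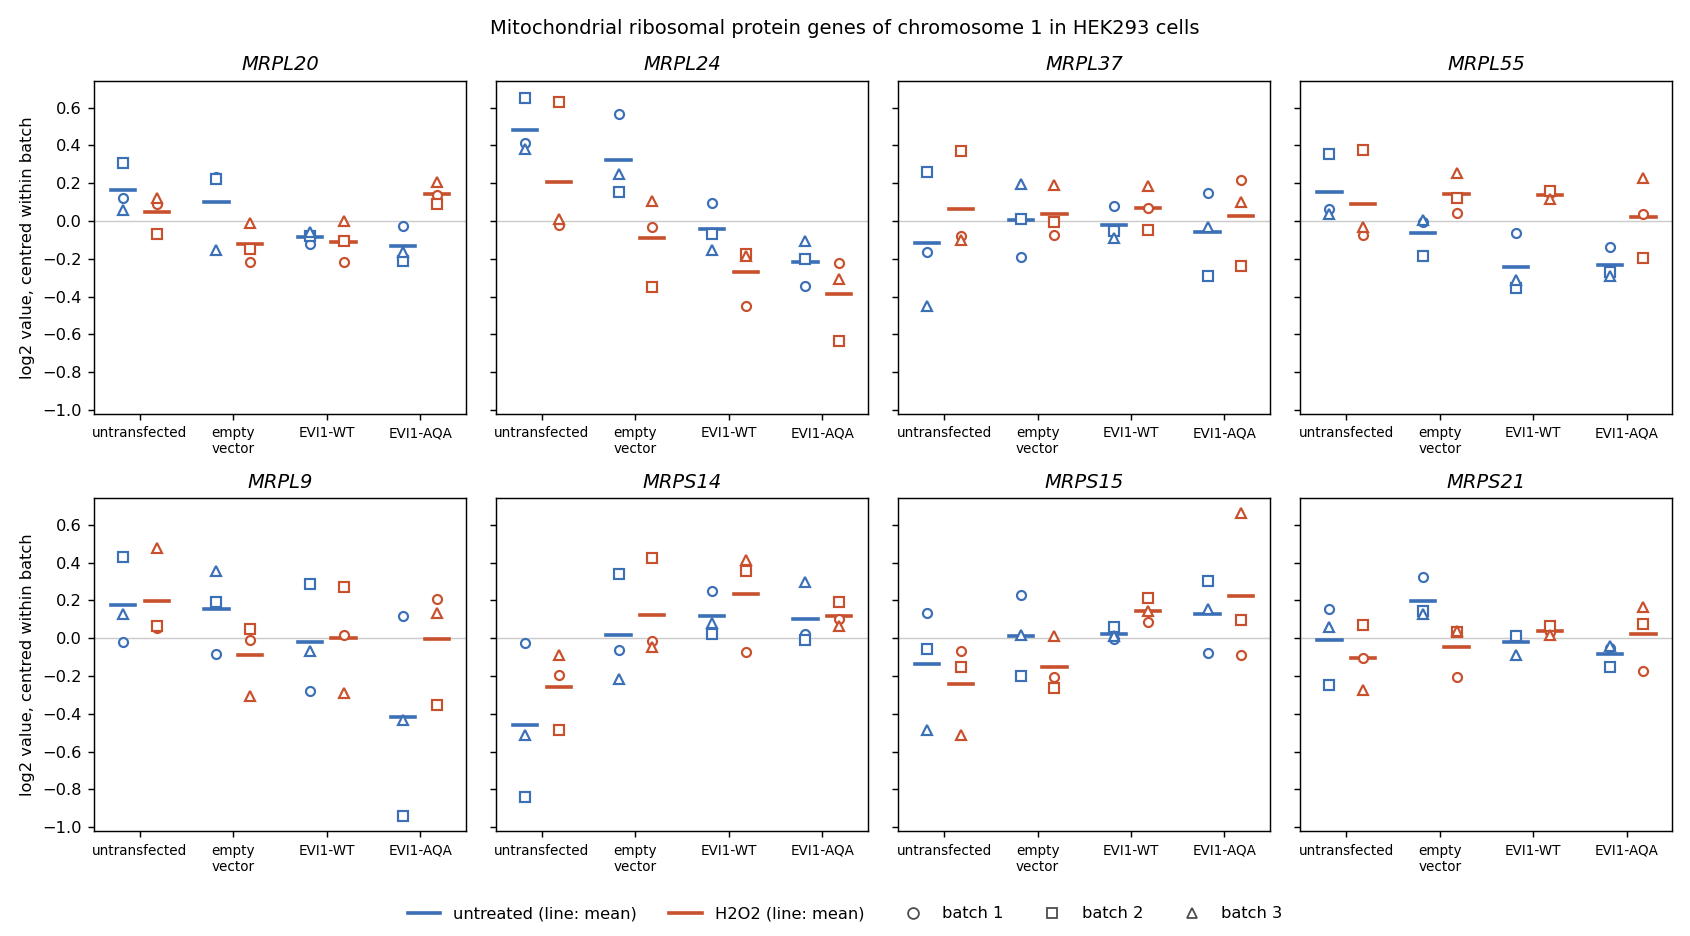
The panels show the log2 value of each gene, centred within its batch, in the 24 samples, with untreated samples in blue, H2O2 samples in red, a marker shape per batch and a line at the mean of 3 samples. MRPL24 steps down from 0.48 in untreated untransfected cells to -0.39 in EVI1-AQA with H2O2, MRPS14 is lowest in untransfected cells, and in the other panels most group means lie within 0.25 of 0.

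EVI1 expression was compared with the empty vector, the control of the transfection. In untreated cells 0 of 8 genes changed by adjusted p in limma with EVI1-WT or with EVI1-AQA, and 0 of all transcripts did with either. At an unadjusted p under 0.05, here applied to all transcripts, 0 of 8 differed with EVI1-WT, where 5.01% of all transcripts did, and 2 of 8 with EVI1-AQA, where 11.8% did. These were MRPL24 (log2 difference -0.54, SE 0.19, interval -0.93 to -0.15, adjusted p = 0.263 by limma, below 0 in 3 of 3 batches, and -0.35 without replicate 1) and MRPL9 (-0.57, SE 0.25, interval -1.09 to -0.061, adjusted p = 0.363, below 0 in 2 of 3 batches). With EVI1-WT, MRPL24 had a difference of -0.36 from empty vector, with an interval of -0.75 to 0.024 and an adjusted p of 0.949 by limma. As both constructs share the empty vector samples, these values are not independent. The median difference over the 8 genes was -0.18 with EVI1-WT and -0.20 with EVI1-AQA, with 6 of 8 below 0 in each, against medians of -0.0028 and -0.010 over all transcripts.

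MRPL9 encodes a large subunit protein with an elongated bacterial relative. Its values in untreated EVI1-AQA cells were 0.12, -0.94 and -0.43, and in untreated empty vector cells -0.084, 0.19 and 0.36. Replicate 1 with EVI1-AQA lay within the range of the empty vector samples, and replicate 2 held the lowest value of any of the 8 genes. Without replicate 1, 2 or 3 in turn the difference ranged from -0.96 to -0.30, so a single replicate moved it by more than 1.5 times.

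Between the EVI1 constructs, no gene differed at an unadjusted p under 0.05 in untreated cells or with H2O2, where 3.37% and 8.33% of all transcripts did. None of the 8 passed by adjusted p in limma, where 0 of all transcripts did in untreated cells and 1 with H2O2. The intervals of EVI1-AQA minus EVI1-WT in untreated cells reached from -0.56 to 0.21 for MRPL24, from -0.91 to 0.11 for MRPL9 and from -0.45 to 0.42 for MRPS14. Differences within these limits were therefore not excluded with 3 samples a group. In MRPS21, the narrowest after MRPL20, the interval was -0.35 to 0.23.

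With H2O2, 0 of 8 genes differed between either construct and the empty vector at an unadjusted p under 0.05, where 3.23% of all transcripts did with EVI1-WT and 7.16% with EVI1-AQA. None of the 8 passed by adjusted p in limma, where 0 of all transcripts did with EVI1-WT and 1 with EVI1-AQA. The widest differences were those of MRPS15, at 0.30 with EVI1-WT (interval -0.11 to 0.71) and 0.37 with EVI1-AQA (interval -0.035 to 0.78). MRPL20 had a difference of 0.27 with EVI1-AQA (interval -0.0037 to 0.54, adjusted p = 0.699 by limma), and the 3 samples of this group lay above the 3 empty vector samples. Without the 3 H2O2 libraries, 1 of 8 genes passed an unadjusted p under 0.05 with EVI1-AQA, where 8.77% of all transcripts did. This was MRPL24 (-0.55, SE 0.23, adjusted p = 0.519 by limma, against -0.29 with these libraries). In the same setting MRPS15 had a difference of 0.51 (SE 0.25) with EVI1-AQA and 0.21 (SE 0.24) with EVI1-WT.

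Transfection itself was examined against untransfected cells. Empty vector against untransfected gave 1 gene of 8 at an unadjusted p under 0.05 in untreated cells and 0 with H2O2, where 12.1% and 8.39% of all transcripts did. By adjusted p in limma none of the 8 passed, and 0 of all transcripts did in each. The 1 gene was MRPS14, which encodes a small subunit protein of the head of the subunit. Its values in untreated cells were -0.027, -0.84 and -0.51 untransfected, -0.065, 0.34 and -0.22 with empty vector, 0.25, 0.021 and 0.080 with EVI1-WT, and 0.022, -0.0088 and 0.30 with EVI1-AQA. With H2O2 they were -0.20, -0.49 and -0.088 untransfected, -0.012, 0.43 and -0.045 with empty vector, -0.074, 0.36 and 0.42 with EVI1-WT, and 0.10, 0.19 and 0.067 with EVI1-AQA. Untransfected cells held the lowest group means of MRPS14, -0.46 ± 0.41 untreated and -0.26 ± 0.21 with H2O2 (SD, n = 3), and the other 6 means lay between 0.020 and 0.23.

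In untreated cells MRPS14 differed from untransfected cells by 0.48 with empty vector (SE 0.21, adjusted p = 0.377 by limma), by 0.58 with EVI1-WT (adjusted p = 0.112) and by 0.56 with EVI1-AQA (adjusted p = 0.0897). Without replicates 2 and 3 of the untreated untransfected cells, which left 1 library in that group, the differences were -0.015, 0.082 and 0.070. The difference with empty vector was 0.13 without replicate 2 of every group and 0.74 without replicate 1. With H2O2 all 9 transfected samples lay above all 3 untransfected samples, a separation that was not counted over all transcripts. The differences were 0.38 (interval -0.053 to 0.81), 0.49 (interval 0.058 to 0.92, adjusted p = 0.248 by limma) and 0.38 (interval -0.056 to 0.81) in the same order. The second of these was 0.31 without replicate 2. Leaving out the 3 H2O2 libraries, these differences were 0.19, 0.39 and 0.41, none with an unadjusted p under 0.05.

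Against untransfected cells, 3 of 8 genes differed at an unadjusted p under 0.05 with EVI1-WT in untreated cells (MRPL24, MRPL55 and MRPS14) and 5 of 8 with EVI1-AQA (MRPL9, MRPL20, MRPL24, MRPL55 and MRPS14), where 22.2% and 27.1% of all transcripts did. Without the 2 untreated untransfected libraries 1 library remained in that group, so these counts are not given for that setting. With H2O2 the counts were 2 of 8 with EVI1-WT (MRPL24 and MRPS14) and 2 of 8 with EVI1-AQA (MRPL24 and MRPS15), against 16.4% and 15.8% of all transcripts. The counts without the 3 H2O2 libraries were 1 of 8 (MRPL24) and 2 of 8 (MRPL24 and MRPS15), where 13.8% and 19% of all transcripts passed, and MRPL24 differed by -0.70 with EVI1-AQA (SE 0.21, adjusted p = 0.0902 by limma) in place of -0.59. Without replicate 2 of every group that difference was -0.26. All of these contrasts share the untransfected samples and were added after the data were seen. MRPL55, one of the proteins found in mitochondrial ribosomes but not in bacterial ones, was 0.066, 0.36 and 0.037 in untreated untransfected cells, -0.066, -0.35 and -0.31 with EVI1-WT and -0.14, -0.27 and -0.29 with EVI1-AQA. The samples with either construct lay below the untransfected ones, by -0.40 (SE 0.15, adjusted p = 0.131 by limma) and -0.39 (SE 0.15, adjusted p = 0.107). The differences of MRPL55 were -0.30 and -0.29 without the 2 untreated untransfected libraries and -0.24 and -0.27 without replicate 2. MRPL20 differed by -0.30 in untreated EVI1-AQA cells (SE 0.13, adjusted p = 0.15 by limma) and MRPL9 by -0.60 (SE 0.25, adjusted p = 0.127). The difference of MRPL20 was -0.25 without the 2 untreated untransfected libraries and -0.19 without replicate 2. That of MRPL9 was -0.37 without the 2 libraries, -0.21 without replicate 2 and -0.96 without replicate 1. MRPS15 differed by 0.47 in EVI1-AQA with H2O2 (SE 0.20, adjusted p = 0.257 by limma), where its values were -0.088, 0.097 and 0.66 against -0.069, -0.15 and -0.51, so that replicate 3 held most of the difference. It was 0.64 without the 3 H2O2 libraries (SE 0.22, adjusted p = 0.125 by limma), and it was 0.11 without replicate 3 and 0.71 without replicate 1.

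**Figure D2:**
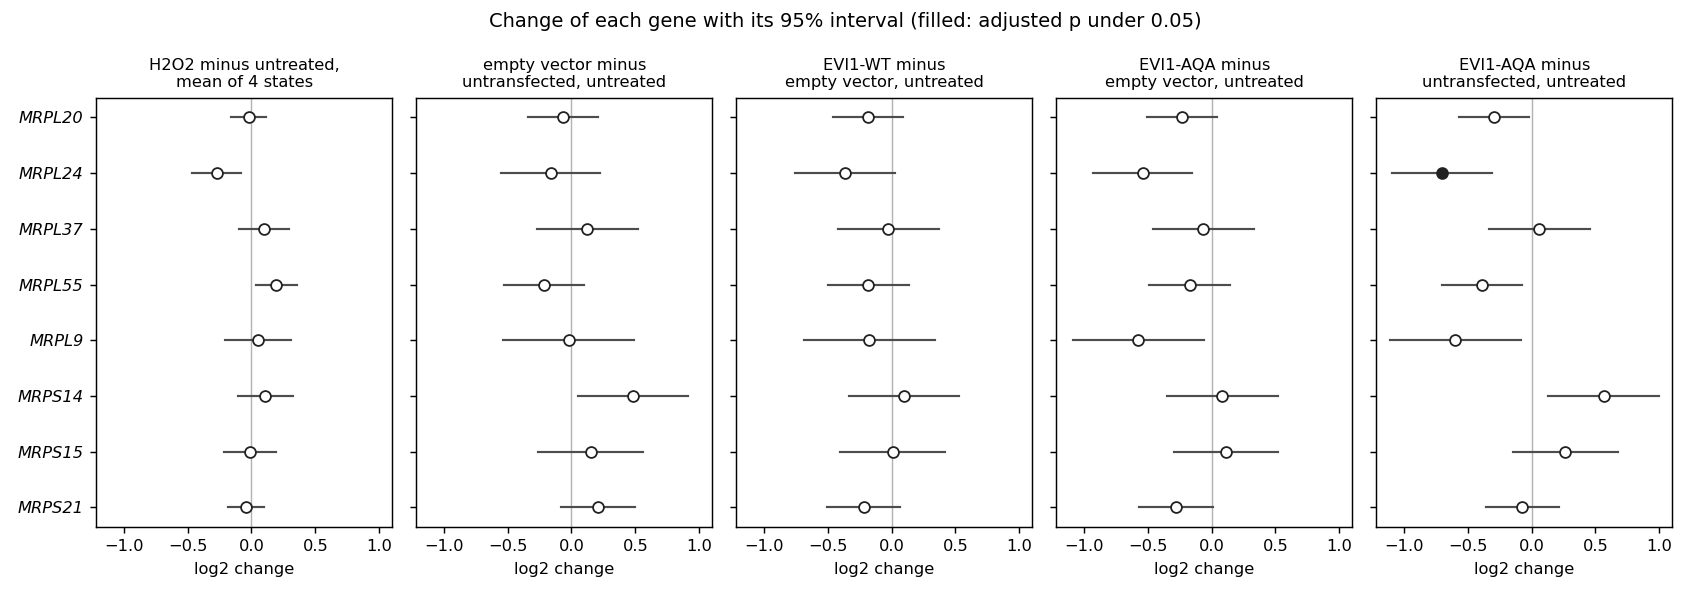
Each point is the log2 change of a gene in 1 comparison, with its 95% interval from limma and a filled point for an adjusted p under 0.05. The filled point is MRPL24 in untreated EVI1-AQA against untransfected cells, at -0.70, and for H2O2 over the 4 transfection states the points lie between -0.27 and 0.20.

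H2O2 exposure was tested as the mean change over the 4 transfection states. None of the 8 genes changed by adjusted p in limma, where 12.3% of all transcripts were called, and 2 of 8 passed an unadjusted p under 0.05, where 27.8% did. The log2 changes ran from -0.27 to 0.20, with 4 genes above 0 and 4 below and a median of 0.020 (SD 0.13 over 3 batches), beside 0.0016 over all transcripts. MRPL24 had the lowest value, -0.27 (SE 0.093, interval -0.47 to -0.078, adjusted p = 0.0608 by limma). It was -0.36, -0.27 and -0.19 in batches 1, 2 and 3, and the H2O2 sample lay above its untreated partner in 1 of 12 pairs. The adjusted p of MRPL24 was 0.035 without the replicate block and 0.0427 in a test without both block and moderation, so its call turned on the fit. MRPL55 had the highest value, 0.20 (SE 0.075, interval 0.038 to 0.35, adjusted p = 0.0949 by limma), with the H2O2 sample above its partner in 10 of 12 pairs. Its adjusted p was 0.0569 without the block and 0.0461 without both block and moderation. Without the 3 H2O2 libraries the values were -0.27 for MRPL24 (adjusted p = 0.108 by limma) and 0.19 for MRPL55 (adjusted p = 0.191).

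For the other 6 genes the interval of the H2O2 change was -0.16 to 0.12 for MRPL20, -0.10 to 0.29 for MRPL37, -0.20 to 0.31 for MRPL9, -0.11 to 0.33 for MRPS14, -0.22 to 0.19 for MRPS15 and -0.19 to 0.10 for MRPS21. A change as large as that of MRPL24 lay outside the intervals of MRPL20, MRPL37, MRPL9, MRPS14, MRPS15 and MRPS21 on the lower side. With all libraries and the replicate block, MRPL37 and MRPS21 passed an unadjusted p under 0.05 in none of the comparisons. In MRPS21, whose protein is a small one of the small subunit, all 24 values lay between -0.27 and 0.33 and the SD over samples was 0.14, smaller than in all but 4.86% of transcripts. The SD of MRPL24, 0.34, was the highest of the 8, with 73.6% of transcripts below it, and the median over all transcripts was 0.27.

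Within single transfection states, H2O2 gave 0 of 8 genes at an unadjusted p under 0.05 in untransfected cells and 1 of 8 in each state of transfection, in the order empty vector, EVI1-WT, EVI1-AQA, where 12.6%, 14.6%, 12% and 14.8% of all transcripts did. None of the 8 passed by adjusted p in limma in any state, where 1, 41, 4 and 64 of all transcripts did in the same order. The 1 gene was MRPL24 with empty vector (-0.41, SE 0.19, adjusted p = 0.318), MRPL55 with EVI1-WT (0.38, SE 0.15, adjusted p = 0.321) and MRPL20 with EVI1-AQA (0.28, SE 0.13, adjusted p = 0.329). In EVI1-WT cells MRPL55 was 0.15, 0.16 and 0.11 with H2O2, above the 3 untreated values. In EVI1-AQA cells MRPL20 was 0.14, 0.089 and 0.21 with H2O2 against -0.028, -0.21 and -0.16 untreated. These groups did not overlap, and the share of all transcripts without overlap was not counted. None of these, without the 3 H2O2 libraries, passed an unadjusted p under 0.05, and the changes were -0.26 for MRPL24, 0.38 for MRPL55 and 0.28 for MRPL20. The antisense transcript RP4-758J18.2 had a log2 change of 0.46 in the same comparison (SE 0.18, adjusted p = 0.242 by limma), and its part in the values of MRPL20 was not tested.

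Whether the H2O2 response depended on the construct was tested by interaction contrasts, and none of the 8 genes passed by adjusted p in limma. In each contrast 0 of all transcripts passed. At an unadjusted p under 0.05, 0 of 8 passed for empty vector against untransfected, EVI1-WT against empty vector and EVI1-AQA against EVI1-WT, where 3.17%, 2.57% and 7.59% of all transcripts did. For EVI1-AQA against empty vector 1 of 8 passed, where 11.4% did. This was MRPL20, whose response was higher by 0.50 with EVI1-AQA (SE 0.18, interval 0.12 to 0.89, adjusted p = 0.301 by limma), and above 0 in 3 of 3 batches. The response with EVI1-WT was above that with empty vector in 8 of 8 genes, by 0.013 to 0.30 with a median of 0.19, against a median of -0.0016 over all transcripts. Both responses share the empty vector samples. The EVI1-WT values lay below empty vector for 6 of 8 genes in untreated cells, and with H2O2 the median difference was 0.057. Without the 3 H2O2 libraries the response with EVI1-WT was again above that with empty vector in 8 of 8 genes, with a median of 0.17. For EVI1-AQA against empty vector 2 of 8 then passed an unadjusted p under 0.05, where 10.8% of all transcripts did. The response with EVI1-AQA was higher by 0.49 in MRPL20 (SE 0.23, adjusted p = 0.452 by limma) and 0.52 in MRPS21 (SE 0.22, adjusted p = 0.407 by limma).

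The 8 profiles were compared with each other over the 24 samples as a description, since samples of a batch share their centring. The median Pearson correlation of the 28 pairs was 0.11 (Spearman 0.081), against 0.00046 for 545490 pairs of protein coding transcripts of chromosome 1. All 10 pairs within the large subunit were above 0, with a median of 0.31, and so were the 3 pairs within the small subunit, with a median of 0.27. Of the 15 pairs between the subunits 4 were above 0, with a median of -0.094. MRPL37 and MRPL55 had the highest correlation, 0.52, and MRPL24 and MRPS14 the lowest, -0.65.

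This division did not hold in every batch. The median of the large subunit pairs was -0.099 in batch 1, 0.48 in batch 2 and 0.10 in batch 3, and that of the pairs between subunits was -0.050, -0.37 and -0.032. In the 18 transfected samples alone, the large subunit pairs kept a median of 0.17 with 10 of 10 above 0, while the median between subunits was 0.00013. The small subunit pairs had a median of -0.0098 there, with 1 of 3 above 0, and of -0.12 in batch 1. MRPL24 and MRPS14 had a correlation of -0.050 in batch 1, -0.80 in batch 2 and -0.84 in batch 3. It was -0.27 in the transfected samples alone.

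**Figure D3:**
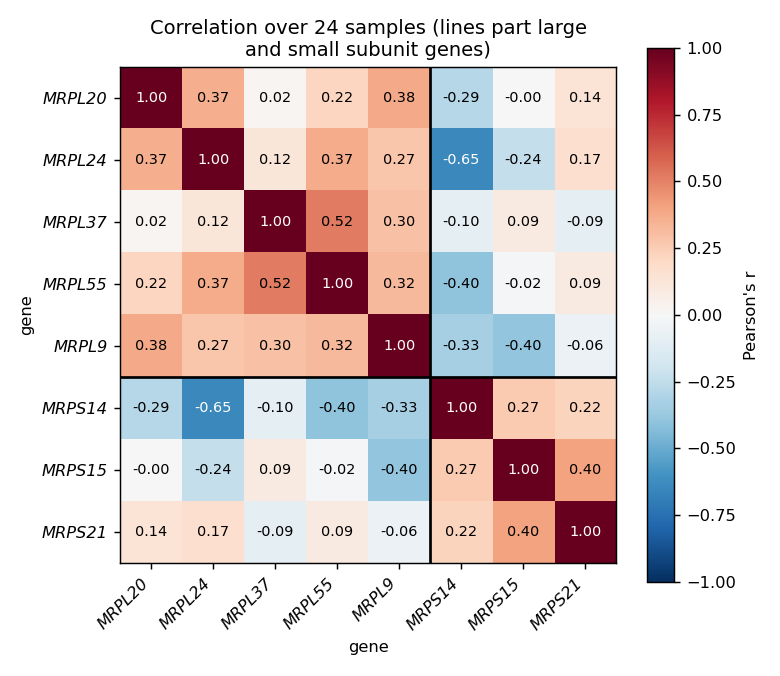
The colour and number in each square give Pearson's r of a pair of genes over 24 samples, with black lines between large and small subunit genes. The squares within the large subunit lie between 0.018 and 0.52, and the lowest square pairs MRPL24 with MRPS14 at -0.65.

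Among 1123 other transcripts annotated to chromosome 1, those most like the mean of the 8 genes over 24 samples were CCT3, a subunit of the cytosolic chaperonin, with a Pearson correlation of 0.69, ACBD6 with 0.65 and the processed pseudogene RP5-1056L3.3 with 0.65. For MRPL24 alone, chosen after its values were seen, LEPR came first with 0.90, and PMVK, an enzyme of the mevalonate pathway, followed with 0.88. For MRPS14 alone the first was ARF1, a small GTPase of the Golgi, with 0.85.

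Other genes of chromosome 1 that serve mitochondria were set beside them for H2O2 over the 4 transfection states, in lists drawn up with earlier results of these data known. Of 10 genes of mitochondrial translation 9 had a transcript, of which 2 rose and 1 fell by adjusted p in limma, where 12.3% of all transcripts were called, with a median of 0.013. TRIT1, which modifies transfer RNAs of the cytosol and mitochondria, rose by 0.46 on the log2 scale (SE 0.090, adjusted p = 0.00376 by limma). YRDC, which forms another modified base of transfer RNAs, rose by 0.43 (SE 0.096, adjusted p = 0.00833 by limma), and IARS2, the mitochondrial isoleucyl-tRNA synthetase, fell by 0.26 (SE 0.065, adjusted p = 0.0167 by limma). DAP3, itself a small subunit protein under an older name, had a change of 0.0075 (SE 0.070).

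Of 3 import genes 2 had a transcript, and TIMM17A, a subunit of the inner membrane translocase, rose by 0.40 (SE 0.077, adjusted p = 0.00375 by limma). Of 6 genes of the respiratory chain and ATP synthase reported here all had a transcript, and 0 of 6 passed by adjusted p in limma or at an unadjusted p under 0.05, with changes from -0.065 to 0.083. None of the 5 cytosolic ribosomal protein genes was called, and 0 of 5 passed an unadjusted p under 0.05, with a median of 0.0010. The counts of genes called were the same without the 3 H2O2 libraries.

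**Figure D4:**
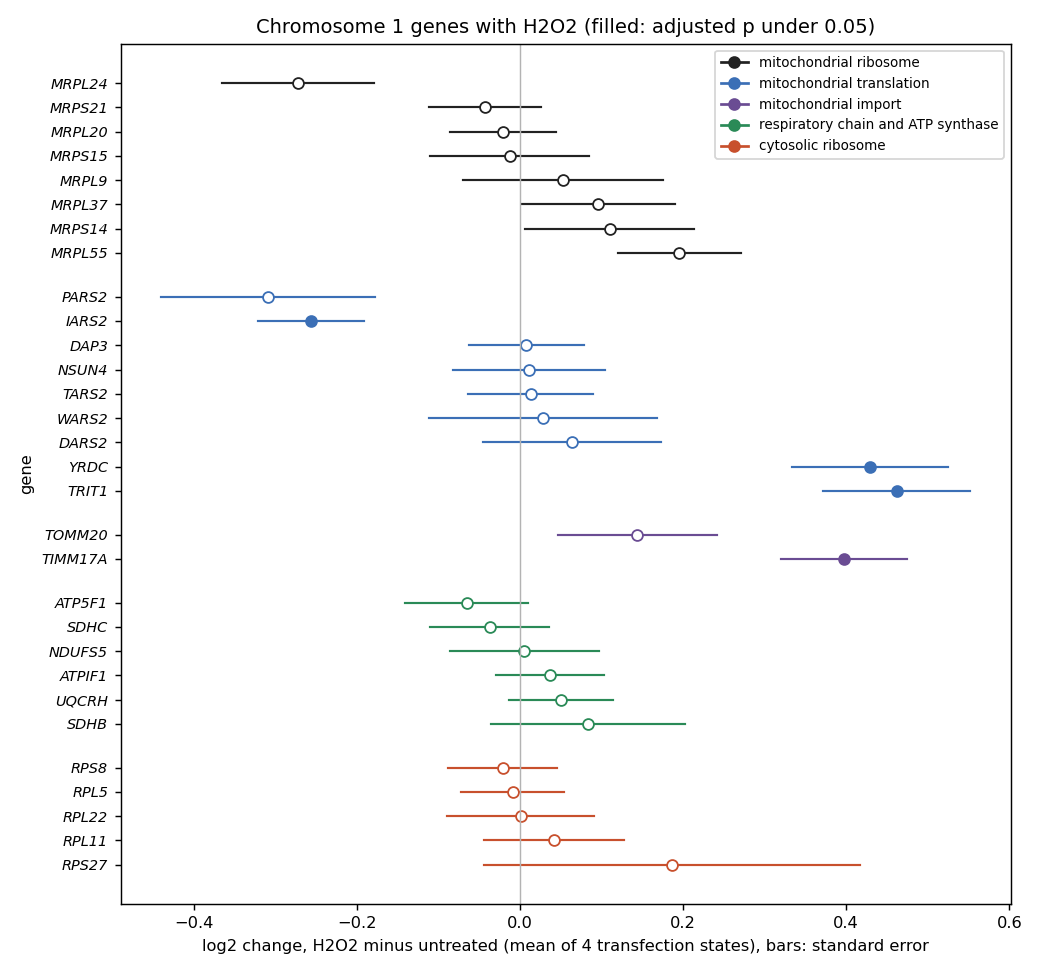
Points give the log2 change with H2O2, as the mean over 4 transfection states, of the 8 genes and of 4 related lists on chromosome 1, with bars of 1 standard error and filled points for an adjusted p under 0.05. None of the 8 mitochondrial ribosomal protein genes is filled, whereas TRIT1 at 0.46, YRDC at 0.43, TIMM17A at 0.40 and IARS2 at -0.26 are.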

How the data were processed

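The authors prepared QuantSeq 3' FWD libraries from polyadenylated RNA, used Ensembl's GRCh38 annotation and analysed expression with Qlucore software, keeping transcripts over a minimum FPKM. The aligner is not given in the sources used here. They deposited log2 values of 11579 transcripts in 24 samples, which lie between -4.49 and 4.91. The log base is not stated and was taken as 2. The largest mean of a transcript within a batch was 4.5e-06, so the table had been centred within batches. Depth is unknown, and no counting error or detection limit is given.

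Samples were grouped by their labels. The members and lists were chosen with earlier results of these data known. All 8 group means were fitted to the 24 samples with limma 3.58.1 in R 4.3.3, with the replicate number as a block because the labels give it as the batch and the centring had used its degrees of freedom. The block left 14 residual degrees of freedom and limma's prior added 5.04 (16 and 4.88 without the block). Tests are two-sided, with Benjamini-Hochberg adjustment over all transcripts and a threshold of 0.05. The study's methods use an analysis of variance, and comparisons of group pairs within the transcripts it selected, without a block. The correlation of samples' deviations from their group means averaged -0.14 for equal replicate numbers and 0.0702 for unequal ones. The centring within batches and the use of deviations from group means largely fix both values, so they do not test the pairing. At most 8 transcripts had exactly equal values in any pair of samples.

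All 8 members are named, from the lists those past the threshold (up to 3 in each direction), and the 3 transcripts of chromosome 1 most correlated with the members' mean. The lists hold chromosome 1 genes of mitochondrial translation, mitochondrial import, the respiratory chain and ATP synthase, and the cytosolic ribosome. The result of 1 listed gene is not reported here. Alternatives were no block, neither block nor moderation, median centring, quantile normalization, leaving out replicates, the 3 H2O2 libraries or 2 untreated untransfected libraries (the last added after the data were seen), transcripts of chromosomes 1 and X alone, and Spearman correlation. Positions are from GENCODE v44, where 10892 identifiers were found, and promoter sequences from RefSeq (GRCh38.p14), where all 8 genes matched. Tables were made in Python 3.11.15 (pandas 2.3.3, numpy 2.4.6, scipy 1.17.1) and figures with matplotlib 3.10.9.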

Additional observations from a re-analysis of the deposited data

Results flagged for a closer look

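In 6 comparisons a member moved one way in every batch under one condition and the opposite way in every batch under another. How many of all transcripts met this rule was not counted, so the 6 are a description. Some batch values lay near 0, such as -0.0039 for H2O2 with empty vector in batch 3 (MRPS15) and 0.0115 with EVI1-WT in batch 1 (MRPS21). In MRPL20, EVI1-AQA minus empty vector was -0.23 in untreated cells and 0.27 with H2O2, and the difference between these had an adjusted p of 0.301 by limma. In MRPL20, EVI1-AQA minus untransfected was -0.30 in untreated cells and 0.097 with H2O2, and this difference was not tested. In MRPS15, the H2O2 change was -0.11 in untransfected cells and 0.12 in EVI1-WT cells, a difference that was not tested. The H2O2 change of MRPS15 was -0.17 with empty vector, and against the 0.12 of EVI1-WT cells the difference had an adjusted p of 1 by limma. In MRPS21, the H2O2 change was -0.24 with empty vector and 0.059 with EVI1-WT, with an adjusted p of 1 by limma for the difference. In MRPS21, EVI1-AQA minus empty vector was -0.28 in untreated cells and 0.067 with H2O2, with an adjusted p of 0.517 by limma for the difference. The H2O2 values of these comparisons include the 3 libraries that went against their labels. Groups of 3 are too small for a test of single outlying samples.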

How the results depend on the processing

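Without the replicate block 2136 transcripts were called across the 8 groups in place of 911, without both block and moderation 1758, 0 to 80 without 1 replicate, 419 without the 2 untreated untransfected libraries (chosen after seeing the data) and 125 on chromosomes 1 and X alone, where fewer transcripts were tested. Of the 8 genes, 0 were called across groups without 1 replicate, with the adjusted p of MRPL24 from 0.172 to 0.213 by limma's F-test. For H2O2 over the 4 states, 177 to 686 transcripts were called without 1 replicate in place of 1420, 941 without the 3 H2O2 libraries and 223 on chromosomes 1 and X alone. Without the block 1 of the 8 genes was called for H2O2, MRPL24, where 1914 of all transcripts were called. Without both block and moderation 2 of the 8 were called, MRPL24 and MRPL55, where 1874 of all transcripts were called. The block changed no other call of a member.

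The median change of the 8 genes moved with single replicates left out: to between -0.18 and -0.067 for H2O2 with empty vector, -0.17 and -0.080 for untreated EVI1-WT minus empty vector, 0.016 and 0.058 for the same with H2O2, -0.16 and -0.071 for untreated EVI1-WT minus untransfected, and -0.053 and 0.20 for the same with H2O2. For the differences in H2O2 response it ranged from 0.15 to 0.20 for EVI1-WT minus empty vector, from 0.14 to 0.34 for EVI1-AQA minus empty vector and from -0.019 to 0.099 for EVI1-AQA minus EVI1-WT. Without the 3 H2O2 libraries the median was 0.24 for H2O2 in EVI1-AQA cells, 0.17 for the response of EVI1-WT minus empty vector and 0.11 for that of EVI1-AQA minus EVI1-WT. Without the 2 untreated untransfected libraries, with 1 left in that group, the median of untreated EVI1-WT minus untransfected was -0.17. The values of MRPS14 were then -0.014 for H2O2 and -0.015 for untreated empty vector minus untransfected, opposite to the full data. The H2O2 change also turned in MRPL20 (-0.11 to 0.028 without 1 replicate), MRPS15 (-0.095 to 0.050 without 1 replicate and 0.032 without the 3 H2O2 libraries), MRPS21 (-0.13 to 0.047 without 1 replicate) and MRPL9 (-0.037 without the 3 H2O2 libraries), none of which was called. The cause was not tested. Unknown depth and 3 samples a group limit the precision, and no pseudocount or filter on low values could be varied.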
